A study of Mus musculus with 12 samples.

Results

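The 39 genes described here encode blood coagulation, fibrinolysis and complement proteins that are made mainly by the liver. They were chosen as a list of names by function, by a rule that holds no measured value but was written with earlier results of these data known, and were found through the Entrez identifiers of the deposited count table. All 39 were present among its 27179 genes, and all 39 passed the filter on low counts. The lowest count of any member in any library was 739, for Masp1.

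Bulk RNA-seq was performed on 12 whole-liver libraries of male mice in 4 groups of 3, each taken to be 1 mouse, which the labels do not state. CD Vec mice ate chow diet (CD) and received empty vector, and CD c-MET/β-catenin mice ate the same diet and received plasmids for human c-MET and N-terminally truncated, active β-catenin, a pair of oncogenes that drives hepatocellular carcinoma. LPD Vec mice and their c-MET/β-catenin counterparts received these injections on low-protein diet (LPD), and the c-MET/β-catenin groups are called oncogene livers here. All 4 groups were harvested when the CD c-MET/β-catenin mice reached their end point. All mice were injected hydrodynamically through the tail vein with Sleeping Beauty transposon plasmids, were young adults and were fasted before harvest per the methods, and the strain is given in more than one way in the methods. Only the hepatocytes that took up the plasmids carried the oncogenes, which were driven by an EF1α promoter, so each oncogene liver held modified and unmodified cells. The labels name the cell type as hepatocyte, whereas the sample was liver tissue.

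Coagulation is a cascade of serine proteases, secreted as inactive precursors, that ends with thrombin cutting fibrinogen into fibrin, and fibrinolysis removes the clot again through plasmin. Complement is a similar cascade that is started by antibody complexes, by lectins on microbial sugars or by the alternative pathway, meets at C3 and ends in the membrane attack complex. Hepatocytes secrete most of these proteins, and several are acute phase proteins that respond to interleukin signals. Many of the clotting proteases must be carboxylated with the help of vitamin K before they work.

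Promoter windows from RefSeq (GRCm38.p6), each 250 bases before and 50 bases after a gene start, were available for 30 of the 39 members. The windows of 5 members are printed because these genes represent the outcomes described further on: C9, C8g and Hrg fell in CD oncogene livers, C3 rose and Fga was not called. Capitals mark matches to the searched letters: TTGCNNAA for C/EBP in 4 of the 5 windows, TATAAA for a TATA box in Hrg and C3, and TTCNNNGAA for STAT and GTTAATNAT for HNF1 in Fga. C8g, like C8b, another gene that fell steeply, had no match to any of them.
C9 (chr15:6445096-6445395, plus strand): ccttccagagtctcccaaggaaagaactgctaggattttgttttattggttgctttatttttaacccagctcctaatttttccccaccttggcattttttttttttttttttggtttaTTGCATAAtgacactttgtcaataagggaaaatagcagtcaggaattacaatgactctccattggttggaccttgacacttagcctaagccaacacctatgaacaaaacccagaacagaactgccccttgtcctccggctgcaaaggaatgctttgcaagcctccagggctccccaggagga
C8g (chr2:25501670-25501969, minus strand): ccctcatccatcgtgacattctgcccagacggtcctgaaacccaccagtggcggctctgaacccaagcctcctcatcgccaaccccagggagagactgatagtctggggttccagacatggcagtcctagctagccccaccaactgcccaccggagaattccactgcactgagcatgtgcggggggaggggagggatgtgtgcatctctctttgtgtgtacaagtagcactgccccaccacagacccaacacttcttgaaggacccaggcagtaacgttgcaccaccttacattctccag
Hrg (chr16:22950822-22951121, plus strand): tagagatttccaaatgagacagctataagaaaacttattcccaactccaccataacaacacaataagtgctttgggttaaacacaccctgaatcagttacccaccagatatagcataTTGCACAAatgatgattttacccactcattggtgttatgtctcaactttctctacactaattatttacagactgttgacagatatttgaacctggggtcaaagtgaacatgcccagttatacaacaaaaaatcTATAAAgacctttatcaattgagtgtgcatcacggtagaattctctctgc
C3 (chr17:57228087-57228386, minus strand): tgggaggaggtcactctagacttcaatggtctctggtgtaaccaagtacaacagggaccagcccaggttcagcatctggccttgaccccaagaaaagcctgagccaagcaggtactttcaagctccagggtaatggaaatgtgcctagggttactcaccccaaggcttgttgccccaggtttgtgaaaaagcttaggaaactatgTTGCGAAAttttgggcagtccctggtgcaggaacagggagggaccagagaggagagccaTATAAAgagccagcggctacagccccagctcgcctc
Fga (chr3:83025903-83026202, plus strand): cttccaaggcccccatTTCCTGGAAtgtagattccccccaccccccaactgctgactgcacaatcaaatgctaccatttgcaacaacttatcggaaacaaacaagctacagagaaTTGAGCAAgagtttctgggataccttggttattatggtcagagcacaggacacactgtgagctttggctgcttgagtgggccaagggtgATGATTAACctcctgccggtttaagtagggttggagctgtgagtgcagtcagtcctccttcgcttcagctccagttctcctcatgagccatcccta

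The C/EBP letters began 132 bases before the RefSeq start of C9, 133 before that of Hrg, 45 before that of C3 and 135 before that of Fga. In Fga they stood on the opposite strand. The GENCODE starts given further on differ for C9 (6445327, against 6445346 in RefSeq) and Fga (83026076, against 83026153). Counted on both strands, they occurred in 12 of the 30 member windows (40%) and in 10.8% of all 27025 windows. The 12 members were Fga, Fgb, F9, F11, Klkb1, Kng2, Hrg, Cpb2, Serpinc1, C1ra, C3 and C9, a mixture of genes that fell, rose or were not called on CD. The STAT letters occurred in 7 member windows (23.3%) against 8.47% of all windows, and in both Fga and Fgb. HNF1 letters occurred in 3 (10%, against 0.836%), HNF4 letters (CAAAGTCCA) in 0 (against 0.477%) and TATA box letters in 3 (10%, against 14.2%). The TATA box letters began at the RefSeq start of Hrg, 14 bases after that of C3 and, on the opposite strand, 132 before that of Klkb1. On the given strand alone, C/EBP letters were in 6 member windows and HNF1 letters in 1. None of these matches shows binding of a factor.

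The libraries held 19476209 to 31990267 counts, and the biological coefficient of variation was 23.2%. The β-catenin targets Glul, Axin2 and Lgr5, which check the injection, summed to 756 to 1004 CPM (read counts scaled to library size with TMM factors) in CD Vec and to 6724 to 8736 CPM in CD oncogene livers, and 3 of 3 rose on CD (beside 18.7% of all genes). On LPD their sum was 965 to 1230 CPM in Vec and 2519 to 4163 CPM in oncogene livers, and 2 of 3 rose (beside 1.15% of all genes). The 8 hepatocyte markers, whose sum was mostly Alb, summed to 94754 to 99761 CPM in CD Vec, 83246 to 89648 in CD oncogene, 79975 to 108612 in LPD Vec and 58755 to 91733 in LPD oncogene livers. On CD 5 of these 8 fell (beside 16.7% of all genes), with a median log2 fold change of -0.61 over the 8, and on LPD 0 of 8 were called (beside 1.32%). Beside 18.7% of all genes that rose on CD, cycling cell markers rose in CD oncogene livers (4 of 4), as did 2 of 5 cholangiocyte, 3 of 6 stellate cell and fibroblast (2 others fell), 2 of 3 tested neutrophil and 2 of 4 tested platelet markers. Of T and NK cell markers 1 of 5 rose, of sinusoidal endothelial markers 1 of 6 fell, and 0 of 6 Kupffer cell and 0 of 3 B cell markers were called. On LPD 2 of 4 cycling cell markers rose (beside 1.15% of all genes), and 0 of the other cell type markers were called. Summed levels of these markers went from 36.8 to 46.3 CPM in CD Vec to 121 to 381 CPM in CD oncogene livers for cholangiocytes, and from 217 to 292 to 242 to 586 CPM for stellate cells. The cholangiocyte sum was mostly Spp1, with 733, 497 and 741 counts in CD Vec and 12752, 6871 and 2959 in CD oncogene livers. Of the 5 cholangiocyte markers 2 had fitted changes below 0 on CD, and the median log2 fold change was 0.33. In bulk tissue, fewer cells of a type and less RNA per cell cannot be told apart, and the part of cell composition in the results was not tested.

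Members took 3.43% to 3.87% of all counts in CD Vec livers and 3.96% to 4.98% in CD oncogene livers. In LPD livers they took 3.94% to 4.53% with Vec and 3.92% to 4.45% with c-MET/β-catenin. Per kilobase of exon, the levels in CD Vec livers were highest for the fibrinogen chains Fgg and Fga, with means of 1554 and 1410 CPM, and for C3 with 1198 CPM. The lowest per kilobase were the serine protease Masp1 of the lectin pathway (8.29 CPM) and protein S, Pros1 (16.4 CPM). Levels between mice of a group were mostly close, with median coefficients of variation over the members of 8.96% to 13.1% in the 4 groups. The widest spread was that of C9 in LPD oncogene livers (88.3%, a 4.43-fold range) and of C6 in CD Vec livers (66.4%, a 5.40-fold range), both of the membrane attack complex. The fibrinogen chains varied by 49.5% to 51.7% in CD oncogene livers, F11 by 47.9% in LPD oncogene livers and Masp1 by 42.5% in CD Vec livers.

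**Figure D1:**
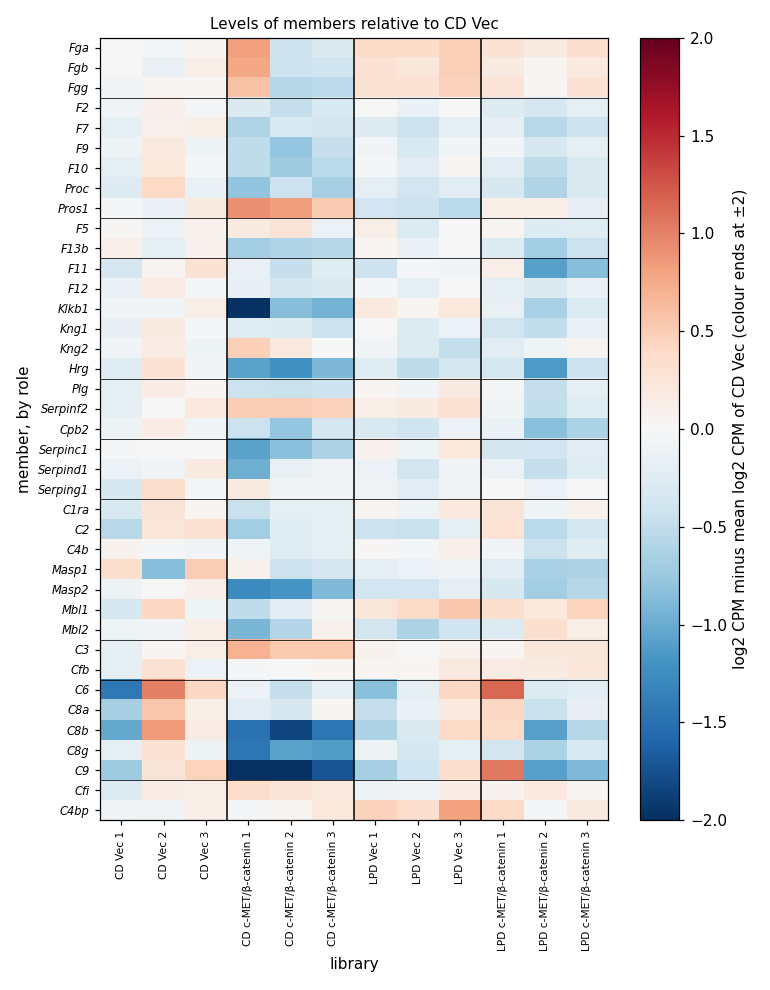
Heat map of the 39 members (rows, ordered by role) in the 12 libraries (columns), coloured by log2 CPM minus the mean log2 CPM of the 3 CD Vec libraries, with colours ending at ±2. In the CD oncogene columns 29 of 39 members have a fitted change below 0 against CD Vec, with C9 the lowest, and the fibrinogen rows are red in CD oncogene replicate 1 only among the 3 livers of that group.

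To find how the oncogenes changed these genes on the regular diet, CD oncogene livers were compared with CD Vec livers. The genes that fell most encode terminal complement components (C9, C8b and C8g), plasma prekallikrein (Klkb1), the lectin pathway protease Masp2 and histidine-rich glycoprotein (Hrg), whereas Pros1, C3 and the plasmin inhibitor Serpinf2 rose. Of the 39 members 17 were called (edgeR quasi-likelihood test, p adjusted by Benjamini-Hochberg, BH, under 0.05), which is 43.6% against 35.4% of all tested genes. At an unadjusted p under 0.05 there were 18 members (46.2%, against 45.1% of all genes). In all, 14 fell (35.9%, against 16.7% of all genes) and 3 rose (7.69%, against 18.7%). The median log2 fold change was -0.33, beside -0.01 over all genes, and 29 of 39 members lay below 0. For 22 members the 2 groups did not overlap, beside 42.6% of all genes. When libraries were scaled by their totals alone, the median over all genes moved to 0.28 and 12 members were called, 5 higher and 7 lower, in place of 3 and 14, which made 30.8% of the members against 40.7% of all genes. Of all genes called on that scale 78.8% were higher. On that scale 22 of 39 members lay below 0 and their median was -0.05. The deposited header gives a dataset number for each library. Split wherever these numbers jump by more than 5, a division made here that no label or header names, the libraries fall into 3 sets, called header runs, and 2 of 3 CD oncogene libraries formed a run of their own. With a term for these runs 1 member, Masp2, was called (-0.98, adjusted p = 0.02385), which made 2.56% of the members against 6.78% of all genes. Within the run that held all groups, with 1 library of each CD group, the median log2 difference of the members was -0.36, beside -0.28 over all libraries on the same scale.

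**Figure D2:**
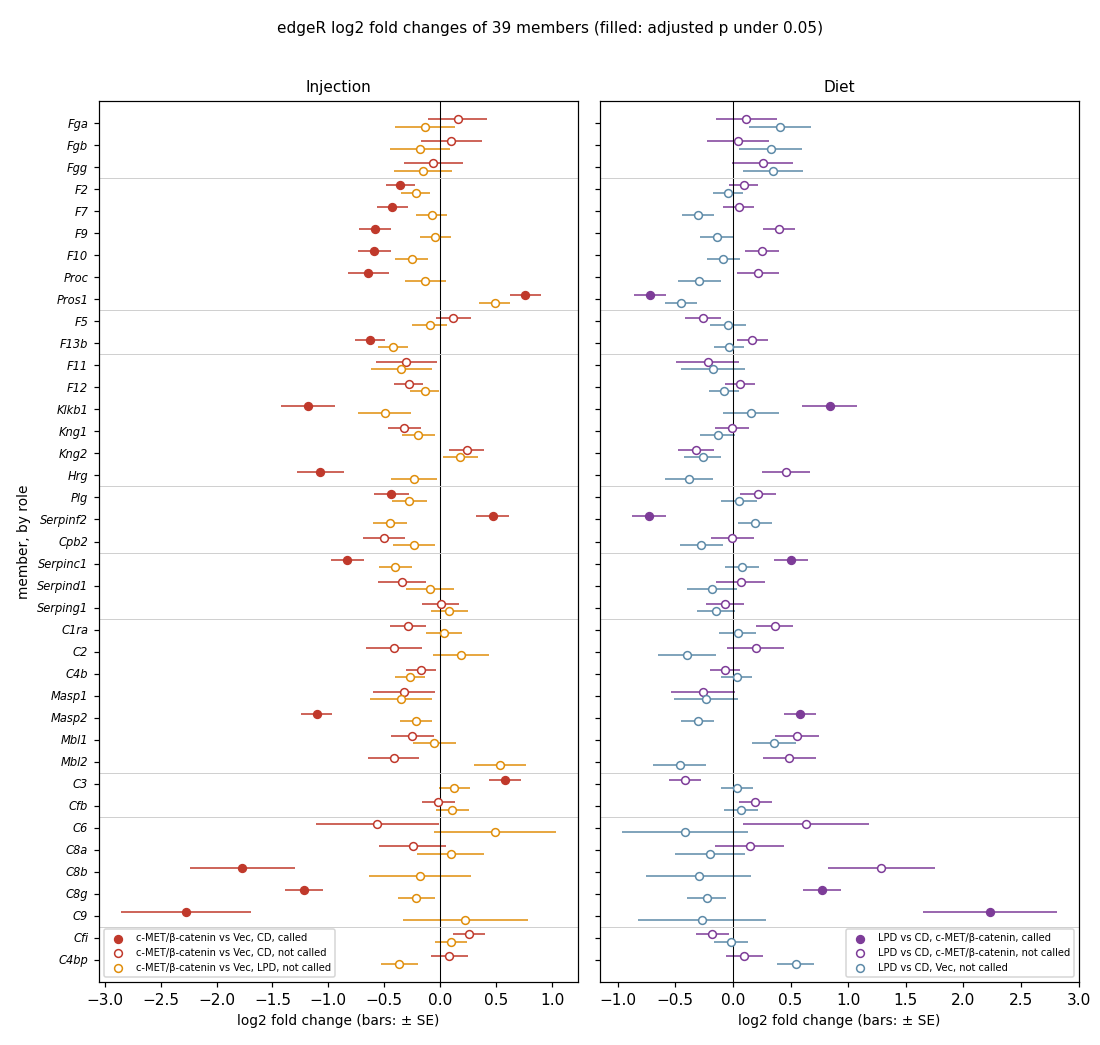
Log2 fold changes (x axis, bars ± SE) of the 39 members by role, for oncogene against Vec on each diet (left) and LPD against CD with each injection (right). Filled points are called at an adjusted p under 0.05: 17 on CD and 7 for diet in oncogene livers, whereas all points for LPD and for diet in Vec livers are open.

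The 3 fibrinogen chains are the substrate of thrombin, and their genes lie side by side on chromosome 3, with 11 kb between Fgg and Fga and 6.51 kb between Fga and Fgb. Fga (chromosome 3 from 83026076 to 83033627) was at 4256, 4137 and 4336 CPM in CD Vec livers and at 7516, 3178 and 3488 CPM in CD oncogene livers. One oncogene liver, replicate 1, stood above all CD Vec livers, and the other two stood below them, so the groups overlapped. The log2 fold change of Fga was 0.16 (SE 0.27, adjusted p = 0.6777), and those of Fgb and Fgg were 0.10 and -0.06, with 0 of 3 called at an adjusted or an unadjusted p under 0.05 (beside 35.4% and 45.1% of all genes). Without replicate 1, the log2 fold changes were -0.35 for Fga, -0.41 for Fgb and -0.55 for Fgg, and Fgg was called (adjusted p = 0.01409). The ratio of Fgb to Fga counts was 0.591 ± 0.044 in CD Vec and 0.568 ± 0.023 in CD oncogene livers (SD, n = 3), with overlapping values (exact permutation test, two-sided, p = 0.4). That of Fgg to Fga was 0.767 ± 0.047 and 0.663 ± 0.025, with no overlap on CD (p = 0.1 in the same exact permutation test, the smallest that 3 against 3 livers allow) and with overlap on LPD. On LPD, Fga was at 5527, 5475 and 5888 CPM with Vec and at 5195, 4800 and 5372 CPM with c-MET/β-catenin. All 6 LPD livers stood above the CD Vec livers, and the diet difference in Vec livers was not called (log2 fold change 0.41, SE 0.27, adjusted p = 0.6691).

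The vitamin K dependent proteins include the proteases prothrombin (F2), factors VII, IX and X, and the anticoagulants protein C (Proc) and protein S (Pros1). All 6 were called on CD, where 35.4% of all genes were. Pros1 (chromosome 16 from 62854307 to 62929346) was at 64.8, 60.6 and 75.9 CPM in CD Vec livers and at 126, 119 and 95.3 CPM in CD oncogene livers. Every oncogene liver stood above every vector liver, and the log2 fold change was 0.76 (SE 0.14, adjusted p = 0.001354). The other 5 fell. Prothrombin dropped from a mean of 2135 ± 133 to 1667 ± 114 CPM, F7 from 129 ± 15 to 96.1 ± 9.8, F9 from 249 ± 31 to 166 ± 19, F10 from 629 ± 89 to 418 ± 33 and Proc from 716 ± 182 to 459 ± 63 CPM (SD, n = 3). Their log2 fold changes lay between -0.36 for F2 and -0.64 for Proc. These were modest changes, and with libraries scaled by totals alone 5 of 6 still lay below 0 and 0 of 6 were called lower. On that scale 1 of 6, Pros1, was called, beside 40.7% of all genes. F7 and F10 are neighbours on chromosome 8, 1.5 kb apart. The call for F2 was lost in 11 of the 12 fits that left out 1 library, every one except that without CD oncogene replicate 1, with values of -0.39 to -0.30 over all 12 fits. The call for F7 was lost without CD Vec replicate 2 (-0.40), CD Vec replicate 3 (-0.36) or CD oncogene replicate 1 (-0.35), and that for Proc without CD Vec replicate 2 (-0.42) or CD oncogene replicate 1 (-0.56).

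On LPD, Pros1 was at 51.4, 50.2 and 45.9 CPM with Vec and at 73.6, 73.4 and 59.9 CPM with c-MET/β-catenin. The 2 groups again did not overlap, with a log2 fold change of 0.49 (SE 0.14) that was not called (adjusted p = 0.1303). Pros1 was lower in LPD than in CD oncogene livers (log2 fold change -0.72, SE 0.14, adjusted p = 0.004485), so that LPD oncogene livers stood at about the level of CD Vec livers. The difference between the diets in the effect of the oncogenes was -0.27 (SE 0.19, adjusted p = 0.4149). The 2 enzymes that serve this family were chosen after their values were seen. The carboxylase Ggcx (log2 fold change -0.48, SE 0.10, adjusted p = 0.002824) and the epoxide reductase Vkorc1 (-0.70, SE 0.17, adjusted p = 0.006363), which recycles vitamin K, fell on CD. Neither was called with libraries scaled by totals alone (-0.20 and -0.41) or with the header run term (-0.34 and -0.68). Ggcx was at 68.7, 71.2 and 67.3 CPM in CD Vec livers and at 44.7, 49.6 and 53.8 CPM in CD oncogene livers. In LPD oncogene livers it was at 71.3, 70.6 and 63.3 CPM, above the CD oncogene livers in every library (log2 fold change 0.47, adjusted p = 0.007182), a call that the header run term ended (0.35, adjusted p = 0.2315).

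Factor V (F5), a cofactor of the prothrombin-cutting complex, was not called on CD (log2 fold change 0.12, SE 0.16). F13b, the carrier subunit of the enzyme that cross-links fibrin (chromosome 1 from 139501702 to 139523752), fell. It was at 246, 203 and 244 CPM in CD Vec livers and at 142, 152 and 155 CPM in CD oncogene livers. The groups were separated, with a log2 fold change of -0.63 ± 0.13 (SE, BH-adjusted p = 0.003533), and with libraries scaled by totals alone F13b was at -0.34 and not called (adjusted p = 0.06478). In LPD livers F13b was at 236, 209 and 231 CPM with Vec and at 190, 143 and 172 CPM with c-MET/β-catenin. These groups did not overlap either, and the log2 fold change of -0.42 (SE 0.13) was not called (adjusted p = 0.1911).

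The contact system starts clotting on charged surfaces and releases bradykinin from kininogen. Of its 6 members Klkb1 and Hrg fell on CD (33.3%, beside 16.7% of all genes that fell and 35.4% called), and F11, F12, Kng1 and Kng2 were not called. F12 was called lower by DESeq2 (-0.28, adjusted p = 0.04472), and Kng2 higher with libraries scaled by totals alone (0.53, adjusted p = 0.01198). Klkb1 (chromosome 8 from 45266689 to 45294859) was at 207, 207 and 234 CPM in CD Vec livers and at 54.6, 120 and 112 CPM in CD oncogene livers. All 3 oncogene livers were well below the vector livers, with replicate 1 the lowest, and the log2 fold change was -1.18 (SE 0.24, adjusted p = 0.002924). In LPD livers Klkb1 was at 248, 224 and 251 CPM with Vec and at 195, 137 and 179 CPM with c-MET/β-catenin. The LPD groups did not overlap, with a log2 fold change of -0.50 ± 0.24 (SE, BH-adjusted p = 0.4843). Among oncogene livers Klkb1 was higher on LPD (log2 fold change 0.84, SE 0.24, adjusted p = 0.02971), and this call was lost without LPD oncogene replicate 1 (0.73, adjusted p = 0.09832) or replicate 3 (0.81, adjusted p = 0.08563), and with libraries scaled by totals alone (0.76, adjusted p = 0.05001).

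The neighbour of Klkb1, the factor XI gene F11, lies 4.66 kb away on the same strand and had a log2 fold change of -0.30 ± 0.28 (SE, BH-adjusted p = 0.4217) on CD. The ratio of Klkb1 to F11 counts was 1.90 ± 0.33 in CD Vec and 1.04 ± 0.47 in CD oncogene livers (SD, n = 3), with no overlap. This ratio too reached the smallest p of the exact permutation test, 0.1. Hrg fell from a mean of 1134 ± 216 to 539 ± 58 CPM (log2 fold change -1.07, SE 0.21, adjusted p = 0.002094). The kininogen genes Kng1 and Kng2, next to Hrg on chromosome 16, had log2 fold changes of -0.32 and 0.24, and the ratio of Kng2 to Kng1 counts was 0.141 ± 0.009 in CD Vec and 0.206 ± 0.022 in CD oncogene livers. On LPD the same ratio was 0.129 ± 0.016 with Vec and 0.168 ± 0.016 with c-MET/β-catenin, again with no overlap. Kng1 and Kng2 are close copies whose reads may have been divided in a way the sources do not state, so this ratio is uncertain.

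**Figure D3:**
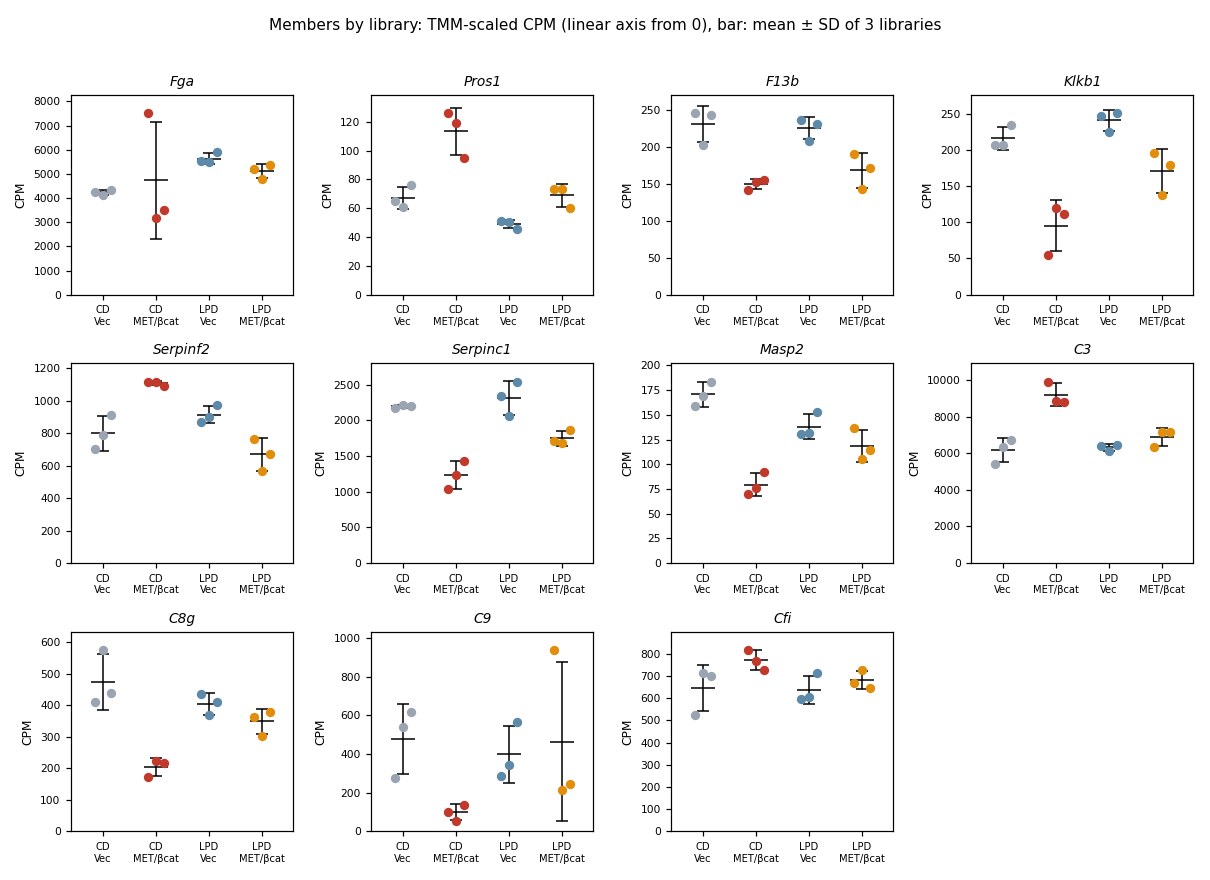
CPM (y axis, linear from 0) of 11 members in the 12 libraries, 1 point per liver, with bars for the mean ± SD of the 3 livers of each group. The CD oncogene livers stand apart from CD Vec livers for Pros1, F13b, Klkb1, Serpinf2, Serpinc1, Masp2, C3, C8g and C9, whereas Fga is split by 1 liver at 7516 CPM.

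In fibrinolysis, plasminogen (Plg) is cut to plasmin, Serpinf2 (α2-antiplasmin) inhibits plasmin, and Cpb2 trims fibrin so that plasminogen binds less. Serpinf2 (chromosome 11 from 75431732 to 75439591) was at 701, 789 and 915 CPM in CD Vec livers and at 1120, 1118 and 1094 CPM in CD oncogene livers. All oncogene livers were higher and lay close to each other, with a log2 fold change of 0.47 ± 0.15 (SE, BH-adjusted p = 0.02699). On LPD the order was the opposite: Serpinf2 was at 870, 903 and 972 CPM with Vec and at 768, 567 and 675 CPM with c-MET/β-catenin. There the oncogene livers stood below the vector livers (log2 fold change -0.45, SE 0.15), a difference that was not called (adjusted p = 0.2201). The effect of the oncogenes on Serpinf2 differed between the diets by -0.92 (SE 0.21, adjusted p = 0.02222 for the interaction), and among oncogene livers it was lower on LPD (log2 fold change -0.73, SE 0.15, adjusted p = 0.005999). The CD call was lost without CD Vec replicate 1 (0.38), CD Vec replicate 2 (0.45) or CD oncogene replicate 2 (0.46), and the interaction call without LPD Vec replicate 2 (-0.93), LPD Vec replicate 3 (-0.87) or LPD oncogene replicate 3 (-0.92). Plg fell from 2753 ± 320 to 2032 ± 24 CPM on CD (log2 fold change -0.44, adjusted p = 0.04483). Its call was lost in 9 of 12 fits without 1 library, with values of -0.52 to -0.37 over all 12, and was held only without CD Vec replicate 1, LPD oncogene replicate 1 or LPD oncogene replicate 2. Cpb2 had a log2 fold change of -0.50 (adjusted p = 0.05342).

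Of the inhibitory serpins, antithrombin (Serpinc1, chromosome 1 from 160978585 to 161005863) was at 2171, 2216 and 2201 CPM in CD Vec livers and at 1045, 1229 and 1433 CPM in CD oncogene livers. The vector livers were nearly equal and every oncogene liver stood far below them, with a log2 fold change of -0.83 ± 0.15 (SE, BH-adjusted p = 0.00126). In LPD livers Serpinc1 was at 2334, 2066 and 2544 CPM with Vec and at 1705, 1676 and 1871 CPM with c-MET/β-catenin. The LPD groups did not overlap (log2 fold change -0.40, SE 0.15, adjusted p = 0.2975), and LPD oncogene livers stood above CD oncogene livers (0.50, SE 0.15, adjusted p = 0.03266). That diet call was lost in 5 of 12 fits without 1 library: CD oncogene replicate 1 (0.40) or 2 (0.50), or LPD oncogene replicate 1 (0.53), 2 (0.54) or 3 (0.46). It was lost with libraries scaled by totals alone, too (0.43, adjusted p = 0.05738). Heparin cofactor II (Serpind1) and C1 inhibitor (Serping1) had log2 fold changes of -0.34 and 0.00 on CD and were not called.

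The classical and lectin pathways are opened by C1r and C1s or by mannose-binding lectins with their proteases, which cut C4 and C2. Of the 7 members 1 was called on CD (14.3%, beside 35.4% of all genes), Masp2, whose protein cuts C4 and C2 once a lectin has bound. Masp2 (chromosome 4 from 148602554 to 148615499) was at 159, 169 and 184 CPM in CD Vec livers and at 70.2, 75.5 and 92.2 CPM in CD oncogene livers. Every oncogene liver stood far below the vector livers, with a log2 fold change of -1.11 ± 0.14 (SE, BH-adjusted p = 0.0001622), the smallest adjusted p among the members. On LPD, Masp2 was at 130, 131 and 153 CPM with Vec and at 137, 105 and 114 CPM with c-MET/β-catenin. These groups overlapped (log2 fold change -0.22, SE 0.14, adjusted p = 0.6648), and the effect of the oncogenes differed between diets by 0.89 (SE 0.20, adjusted p = 0.0206). The interaction call was lost without LPD Vec replicate 1 (0.85), LPD Vec replicate 2 (0.85) or LPD oncogene replicate 1 (0.78). Among oncogene livers Masp2 was higher on LPD (log2 fold change 0.58, SE 0.14, adjusted p = 0.01335), a call lost without LPD oncogene replicate 1 (0.48, adjusted p = 0.05783). The other 6 members, C1ra, C2, C4b, Masp1, Mbl1 and Mbl2, had log2 fold changes between -0.42 and -0.17 on CD. All 7 lay below 0, and with libraries scaled by totals alone 4 of 7 did. C1ra and C4b have near-identical copies, so their counts are uncertain.

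C3, at which the pathways meet, was the most abundant complement member (chromosome 17 from 57203970 to 57228136). It was at 5437, 6328 and 6722 CPM in CD Vec livers and at 9929, 8859 and 8821 CPM in CD oncogene livers. The groups were clearly separated, with a log2 fold change of 0.58 ± 0.14 (SE, BH-adjusted p = 0.007682). On LPD, C3 was at 6423, 6103 and 6435 CPM with Vec and at 6322, 7191 and 7180 CPM with c-MET/β-catenin. These groups overlapped, and the log2 fold change was 0.13 (SE 0.14, adjusted p = 0.8566). The difference between the diets in the effect of the oncogenes was -0.45 (SE 0.20, adjusted p = 0.1762), which DESeq2 called (-0.46, adjusted p = 0.03429). Among oncogene livers DESeq2 also called C3 lower on LPD (-0.43, adjusted p = 0.001646). So did edgeR with libraries scaled by totals alone (-0.49, adjusted p = 0.0229). Factor B (Cfb), which joins C3b in the alternative convertase, was at 1451 ± 282 CPM in CD Vec and 1435 ± 37 CPM in CD oncogene livers (log2 fold change -0.02, SE 0.15). Cfb and C2 lie 86 bases apart on the same strand of chromosome 17, and without a stated strand and overlap setting their counts near the junction are uncertain.

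The membrane attack complex had the largest changes of all role groups. Of its 5 members C9, C8b and C8g fell on CD (beside 16.7% of all genes), with a group median of -1.22 (-0.92 with libraries scaled by totals alone). C9, which polymerises into the pore (chromosome 15 from 6445327 to 6498751), was at 276, 542 and 616 CPM in CD Vec livers and at 103, 56.3 and 137 CPM in CD oncogene livers. No oncogene liver reached the lowest vector liver, and the log2 fold change was -2.27 (SE 0.58, adjusted p = 0.01095), a 4.84-fold lower level. On LPD, C9 was at 286, 342 and 565 CPM with Vec and at 937, 212 and 244 CPM with c-MET/β-catenin. One LPD oncogene liver, replicate 1, stood above all 11 other livers, and the groups overlapped (log2 fold change 0.22, SE 0.56, adjusted p = 0.9482). C9 was higher in LPD than in CD oncogene livers (2.23, SE 0.58, adjusted p = 0.02032). Without LPD oncogene replicate 1 this was 1.21 (adjusted p = 0.07574), and the call was also lost without CD oncogene replicate 1 (2.26) or replicate 2 (1.95). The interaction of C9 was 2.5 (SE 0.80) and was not called by edgeR (adjusted p = 0.07547), whereas DESeq2 called it (2.49, adjusted p = 0.04689).

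C8 consists of α, β and γ chains from separate genes. C8g (chromosome 2 from 25498651 to 25501719), the γ chain, was at 410, 576 and 439 CPM in CD Vec livers and at 172, 225 and 217 CPM in CD oncogene livers. The groups were far apart, with a log2 fold change of -1.22 ± 0.17 (SE, BH-adjusted p = 0.0002639). On LPD, C8g was at 436, 368 and 411 CPM with Vec and at 364, 303 and 381 CPM with c-MET/β-catenin. The LPD groups overlapped (log2 fold change -0.21, SE 0.17, adjusted p = 0.7439), and both stood above the CD oncogene livers. Among oncogene livers C8g was higher on LPD by 0.77 (SE 0.17, adjusted p = 0.008062), and the effect of the oncogenes differed between diets by 1.0 (SE 0.24, adjusted p = 0.02512). The interaction call was lost without LPD Vec replicate 2 (0.93) or 3 (1.02), or without LPD oncogene replicate 1 (0.97) or 3 (0.94).

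On CD C8b, the β chain, fell from 471 ± 270 to 138 ± 20 CPM (log2 fold change -1.77, SE 0.47, adjusted p = 0.01314), and the call was lost without CD Vec replicate 2 (-1.28, adjusted p = 0.05534). C8a, its neighbour 11.1 kb away on chromosome 4, and C6 were not called (log2 fold changes -0.25 and -0.56). The vector livers themselves varied widely in these genes, whose library values are given because of that spread, seen in the data: C6 was at 115, 623 and 414 CPM, C8a at 523, 1222 and 898 CPM and C8b at 204, 744 and 464 CPM in CD Vec replicates 1 to 3. Replicate 1 was the lowest and replicate 2 the highest for each of the 3. A ratio within a library was therefore taken, chosen after the values were seen. The ratio of C8b to C8a counts was 0.389, 0.609 and 0.517 in CD Vec livers and 0.206, 0.174 and 0.179 in CD oncogene livers, with no overlap. On LPD it was 0.450, 0.448 and 0.569 with Vec and 0.487, 0.318 and 0.374 with c-MET/β-catenin, where the groups overlapped. The ratio of C9 to C8a went from 0.552 ± 0.123 to 0.130 ± 0.040 on CD (SD, n = 3), also with no overlap, and the ratio of C8g to C8a from 0.581 ± 0.175 to 0.278 ± 0.052. Each of these 3 CD differences reached the smallest two-sided p that an exact permutation test of 3 against 3 livers allows, 0.1.

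**Figure D4:**
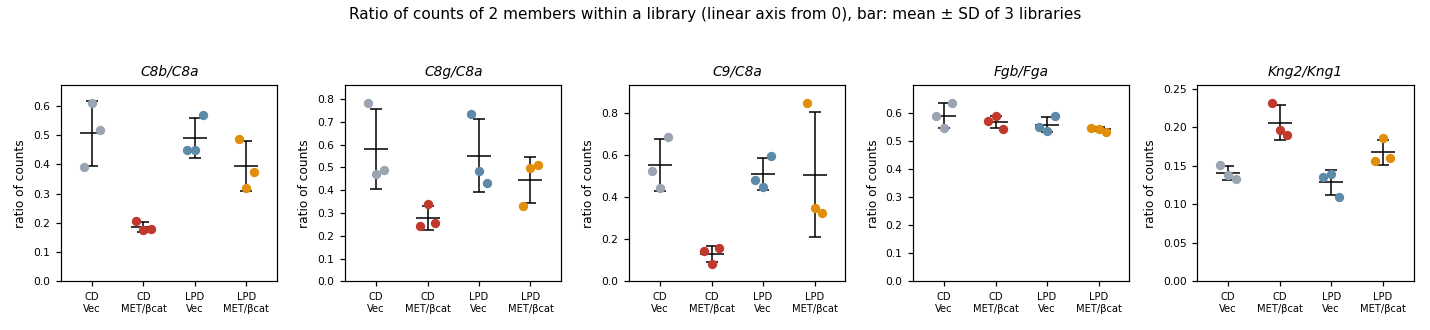
Ratio of the counts of a pair of members within each library (y axis, linear from 0), 1 point per liver, with bars for the mean ± SD of the 3 livers of each group. The ratios of C8b, C8g and C9 to C8a are lowest in CD oncogene livers (means 0.186, 0.278 and 0.130), whereas Fgb to Fga stays between 0.533 and 0.635 in all 12 livers.

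Of the complement regulators factor I (Cfi, chromosome 3 from 129835884 to 129875332), which inactivates C3b and C4b, was at 527, 711 and 699 CPM in CD Vec livers and at 817, 768 and 729 CPM in CD oncogene livers. The oncogene livers stood just above the vector livers, with a log2 fold change of 0.26 ± 0.15 (SE, BH-adjusted p = 0.1958), and with libraries scaled by totals alone Cfi was called higher (0.55, adjusted p = 0.01046). It was at 595, 607 and 712 CPM in LPD Vec and at 669, 728 and 647 CPM in LPD oncogene livers, where the groups overlapped. C4bp, its cofactor for C4b, was at 719 ± 57 CPM in CD Vec and 1048 ± 181 CPM in LPD Vec livers, a log2 fold change of 0.54 (SE 0.16) with LPD that was not called (adjusted p = 0.2043).

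The same question was asked on LPD, where oncogene livers were compared with Vec livers. Of the 39 members 0 were called by edgeR, beside 1.32% of all genes. At an unadjusted p under 0.05 there were 6 (15.4%, beside 11.1% of all genes). Log2 fold changes lay between -0.50 for Klkb1 and 0.53 for Mbl2, with a median of -0.14 beside 0.01 over all genes, and the smallest adjusted p was 0.1303. DESeq2 called 1 member there, Serpinf2 (log2 fold change -0.46, adjusted p = 0.04113). To see the effect of diet alone, LPD Vec livers were compared with CD Vec livers. Again 0 of 39 members were called, beside 0.308% of all genes, with 4 at an unadjusted p under 0.05 (10.3%, beside 9.87% of all genes) and a median of -0.13. The largest value was that of C4bp, which DESeq2 called (adjusted p = 0.0418).

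Diet in the presence of the oncogenes was addressed by comparing LPD with CD oncogene livers. Here 7 of 39 members were called (17.9%, beside 20.0% of all genes). C9, Klkb1, C8g, Masp2 and Serpinc1 were higher on LPD (5 members, 12.8% beside 8.66% of all genes), and Pros1 and Serpinf2 were lower (2 members, 5.13% beside 11.3%). All 7 had been called in the other direction between c-MET/β-catenin and Vec on CD. Both comparisons use the same 3 CD oncogene libraries, which by itself favours opposite directions. The groups did not overlap for 14 members, beside 39.3% of all genes, and the median log2 fold change was 0.14 beside -0.01. With libraries scaled by totals alone 3 members were higher and 3 lower (15.4%, beside 19.2% of all genes). The count was 4 (10.3%, beside 12.6% of all genes) without LPD oncogene replicate 1, and 11 (28.2%, beside 25.6%) without CD Vec replicate 2. A term for the header runs left 0 members called, beside 4.43% of all genes, and the median log2 difference within the run that held all groups was 0.10, beside 0.16 over all libraries on the same scale. The 3 fibrinogen chains, with log2 fold changes of 0.05 to 0.26, were all called higher on LPD without CD oncogene replicate 1 (Fga 0.62, Fgb 0.56, Fgg 0.74).

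The interaction, defined as the oncogene effect (log2) measured under LPD minus the one under CD, tests whether oncogene and Vec livers differed by the same amount on the 2 diets. The paper reports a lower tumor burden on LPD when the CD oncogene mice reached their end point. The amount of tumor and the action of the oncogenes therefore cannot be told apart here. Of the 39 members 3 were called (7.69%, beside 8.91% of all genes). C8g and Masp2 had higher values on LPD (5.13% of members, beside 4.49% of all genes) and Serpinf2 a lower value (2.56%, beside 4.42%). A further 6 members reached an unadjusted p under 0.05 and were not called, 9 in all (23.1%, beside 25.8% of all genes). Among those with large estimates, C9 was at 2.5 (SE 0.80), C8b at 1.59 (SE 0.65), Mbl2 at 0.95 (SE 0.32) and Hrg at 0.84 (SE 0.29). DESeq2 added the interaction calls of C9, Mbl2, Hrg and C3. The count was 0 without LPD Vec replicate 2 (beside 2.75% of all genes), and 1 (2.56%, beside 3.57% to 4.52%) without LPD Vec replicate 3, LPD oncogene replicate 1 or LPD oncogene replicate 3. With the header run term it was 0, beside 0.609% of all genes.

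For context, 69 other genes of these pathways and of their regulation were examined, of which 66 were tested. On CD 19 rose and 18 fell (56.1% called, beside 35.4% of all genes), on LPD 0 were called (beside 1.32%), and among oncogene livers 14 were higher and 9 lower on LPD than on CD (34.8%, beside 20.0%). Of the 25 tested coagulation and fibrinolysis genes 11 rose (44%, beside 18.7% of all genes) and 5 fell (20%, beside 16.7%) on CD, and of the 31 tested complement genes 6 rose (19.4%) and 10 fell (32.3%). Among the largest rises were those of Plat and Thbs1, which are made by cells other than hepatocytes as well.

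Plat, the tissue plasminogen activator, was at 0.917, 0.114 and 9.06 CPM in CD Vec livers and at 261, 130 and 47.0 CPM in CD oncogene livers (log2 fold change 5.43, SE 1.21, adjusted p = 0.005608). Thrombospondin 1 (Thbs1), a platelet and matrix protein, was at 0.560, 0.739 and 1.35 CPM in CD Vec livers and at 19.6, 16.1 and 6.70 CPM in CD oncogene livers (3.99, SE 0.63, adjusted p = 0.0005967). For both genes no CD oncogene liver overlapped a CD Vec liver. With the header run term neither was called (Plat 3.23, adjusted p = 0.1937, and Thbs1 2.46, adjusted p = 0.08285), and without CD Vec replicate 3 Plat was at 8.09. Platelet markers summed to 4.38 to 6.62 CPM in CD Vec and to 9.87 to 17.8 CPM in CD oncogene livers, and their part in these values was not tested.

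Among the largest falls were those of C4a and Susd4. C4a was at 53.1, 552 and 182 CPM in CD Vec livers and at 8.46, 9.42 and 5.46 CPM in CD oncogene livers (log2 fold change -5.07, SE 1.0, adjusted p = 0.002623). C4a varied over a wide range among vector livers and is a near-identical copy of C4b, which changed by -0.17, so its counts are uncertain. Susd4, a complement regulator, was at 5.45, 15 and 33.3 CPM in CD Vec livers and at 2.94, 2.16 and 3.70 CPM in CD oncogene livers (-2.60, SE 0.76, adjusted p = 0.02062). Its call was lost without CD Vec replicate 3 (-1.78), CD oncogene replicate 1 (-2.61) or replicate 2 (-2.43), and without the filter on low counts (-2.60, adjusted p = 0.0557). With the header run term neither C4a (-5.86, adjusted p = 0.1169) nor Susd4 (-2.81, adjusted p = 0.2072) was called.

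**Figure D5:**
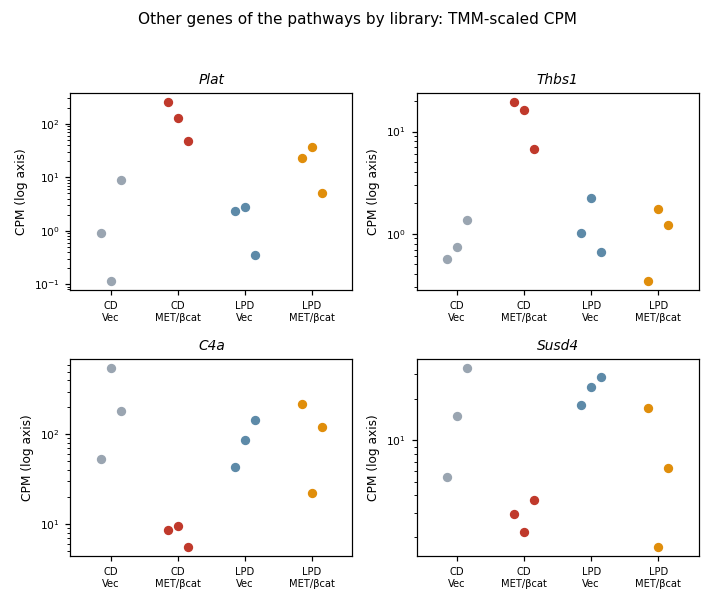
CPM (y axis, log scale) of 4 other pathway genes in the 12 libraries, 1 point per liver. Plat and Thbs1 are higher and C4a and Susd4 lower in CD oncogene than in CD Vec livers, with Plat between 47.0 and 261 CPM in the CD oncogene livers.

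Of the 10 listed hepatocyte regulators of such genes, 3 fell (30%, beside 16.7% of all genes) and 2 rose (20%, beside 18.7%) on CD. Cebpa, which encodes C/EBPα and was chosen after its values were seen because its letters were counted in the promoters, was at 865, 756 and 685 CPM in CD Vec livers and at 239, 418 and 373 CPM in CD oncogene livers. No oncogene liver overlapped a vector liver, and the log2 fold change was -1.16 (SE 0.19, adjusted p = 0.000615). With the header run term it was -0.95 and not called (adjusted p = 0.1075). On LPD it was at 661, 639 and 660 CPM with Vec and at 616, 574 and 571 CPM with c-MET/β-catenin. Whether its level bears on the members was not tested.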

How the data were processed

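Whole-liver RNA-seq of 12 libraries was analysed from the deposited table of raw counts per gene, which the authors made with HISAT2 alignment to mm10 and featureCounts per the file headers and the submitters' processing notes, which also name DESeq. Strand setting, handling of multiply aligned reads and versions are not given in the sources used here. The labels state rRNA depletion and the methods mRNA selection. The count columns call the chow groups HPD, whereas the labels say chow, and the labels were followed. The labels do not state that replicates are separate mice, and p-values measure only the spread between these samples, which may be technical.

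Counts of 13947 of 27179 genes passed edgeR's expression filter (edgeR 4.0.16 and limma 3.58.1 in R 4.3.3) and were fitted with TMM scaling and the robust quasi-likelihood test over all 4 groups with no covariate. P-values were adjusted by Benjamini-Hochberg over all tested genes, with a threshold of 0.05. The standard error was taken as the log2 fold change divided by the square root of F. The code was tested on simulated data with 200 genes changed 4-fold. Symbols were matched for 25275 of 27179 identifiers through RefSeq and for 18 more through GENCODE, and coordinates are those of GENCODE M21 on GRCm38. Alternatives were DESeq2 1.42.0, its size factors, library totals alone, no filter, the compared groups alone, the replicate number as a block, the header runs as a term and leaving out each library.

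The members and lists were chosen with earlier results of these data known. Library values are printed for the called member of each role group with the largest change on CD (or the largest change where none was called), for members called in another comparison, and for the 3 other pathway genes with the largest rise and the 3 with the largest fall, of which 1 each is not reported here. Exceptions are named as chosen after their values were seen. Promoter motifs were counted on both strands of the RefSeq windows.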

Additional observations from a re-analysis of the deposited data

Results flagged for a closer look

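For 3 members and 3 other genes the effect of the oncogenes differed between the diets by the interaction term (LPD minus CD, log2, edgeR quasi-likelihood test). Among the members, Serpinf2 differed by -0.92 (SE 0.21, adjusted p = 0.02222), rising on CD and standing lower in each LPD oncogene liver than in each LPD Vec liver, a difference on LPD that was not called. Masp2 differed by 0.89 (SE 0.20, adjusted p = 0.0206) and C8g by 1.0 (SE 0.24, adjusted p = 0.02512), both of which fell on CD. Each of these 3 calls was lost when 1 of several libraries was left out.

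Among the other pathway genes, Thbs1 differed by -4.21 (SE 0.87, adjusted p = 0.01603), a call lost without LPD Vec replicate 2 (-3.57). C4a differed by 5.47 (SE 1.27, adjusted p = 0.02578), a call lost in 7 of 12 fits, and its counts are uncertain because of its copy C4b. Cebpa, a regulator, differed by 1.01 (SE 0.26, adjusted p = 0.0349), a call lost in 7 of 12 fits and with library totals alone (0.83, adjusted p = 0.07382). All of these differences rest on the same 3 CD oncogene livers, 2 of which form a header run of their own. With the header run term 0 of these 6 differences were called. That run and the oncogenes can be told apart only through the third liver.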

How the results depend on the processing

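The term for the header runs left 1 of 17 (beside 6.78% of all genes) for the oncogenes on CD and 0 of 7 and 0 of 3 for diet in oncogene livers and for the interaction (beside 4.43% and 0.609%). Fitting only the groups compared gave 11 on CD (28.2%, beside 22.2% of all genes) and 1 on LPD (Pros1, 2.56% beside 3.8%). DESeq2 called 1 member for the oncogenes on LPD (2.56%, beside 3.56%) and 1 for diet in Vec livers (2.56%, beside 2.43%), where edgeR called 0, with 11 for diet in oncogene livers (28.2%, beside 24.0%) and 7 for the interaction (17.9%, beside 14.9%). Leaving out each library in turn gave 12 to 17 on CD (30.8% to 43.6%, beside 30.0% to 34.0% of all genes), 0 on LPD (beside 0.365% to 1.78%), 4 to 11 for diet in oncogene livers (10.3% to 28.2%, beside 11.1% to 25.6%) and 0 to 4 for the interaction (0% to 10.3%, beside 2.75% to 9.91%). The lowest count on CD, 12 without CD Vec replicate 2, was 30.8% of the members beside 33.8% of all genes. In all 12 of these fits 11 of the 17 members stayed called on CD (F9, F10, Pros1, F13b, Klkb1, Hrg, Serpinc1, Masp2, C3, C8g and C9), 3 of 7 for diet in oncogene livers (Pros1, Serpinf2 and C8g) and 0 of 3 for the interaction. With library totals alone the CD calls of F2, F7, F9, F10, Proc, F13b and Plg were lost, and those of Kng2 (0.53) and Cfi (0.55) were gained. The header run term also ended the CD calls of Plat, Thbs1, C4a, Susd4, Ggcx, Vkorc1 and Cebpa.

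The direction of the fibrinogen chains on CD turned with the setting. With the run term Fga was at -0.31 and Fgb at -0.49, and without CD oncogene replicate 1 at -0.35 and -0.41, with ranges of -0.35 to 0.37 for Fga and -0.41 to 0.30 for Fgb over the libraries left out. Fgg was at 0.22 with library totals alone, at 0.13 and 0.12 without CD oncogene replicates 2 and 3, and at -0.55 (called) without replicate 1. On the given strand alone, HNF1 letters were in 1 and C/EBP letters in 6 member windows. The causes of these shifts were not tested.

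Same-numbered libraries of different groups had correlations of -0.18 to 0.17, 2 of 18 over 0.1, and 3 of 12 libraries correlated best with their own number. No pairing by number was seen, and with 3 libraries a group these correlations cannot exclude one. With the replicate block 14, 0, 0, 7 and 3 members were called for the oncogenes on CD and on LPD, diet in Vec and in oncogene livers, and the interaction, beside 32.4%, 1.08%, 0.115%, 17.1% and 5.82% of all genes. F2, F7 and Plg were the members whose calls were lost on CD, and the interaction calls of Cebpa (1.02, adjusted p = 0.06311) and C4a (5.49, adjusted p = 0.05613) were lost with the block, too.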
